A study of Mus musculus with 6 samples.

Results

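Base excision repair is the pathway that takes single damaged or wrong bases out of DNA. A glycosylase cuts the base from its sugar, an endonuclease opens the strand at the empty site, a polymerase fills the gap and a ligase seals the nick. Uracil reaches DNA when cytosine deaminates or when dUTP is used in place of dTTP, and 5FU, the fluoropyrimidine of Folfiri, adds both uracil and fluorouracil to DNA by way of its effect on thymidylate synthesis and its own incorporation. SN38, the active form of irinotecan, traps topoisomerase I on nicked DNA, and such strand breaks are handled by some of the same late proteins.

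The 10 genes described here are 4 glycosylases that remove uracil, thymine or 5FU (Ung, Tdg, Smug1 and Mbd4), the 8-oxoguanine glycosylase Ogg1, the abasic site endonuclease Apex1, the gap-filling polymerase Polb, the scaffold Xrcc1, the ligase Lig3 and the break sensor Parp1. They were chosen by name, with earlier results of these data known, and all 10 were found among the 24190 genes with counts and passed the expression filter. RNA was sequenced from MTO54 parental organoids, which are mouse tumor organoids (MTO) of colorectal cancer with the AKP genotype. In 3 cultures the organoids received Folfiri, written in the labels as 5FU at 50 μg/μl plus SN38 at 100 nM, and 3 control cultures received complete stem cell medium alone. Both groups came from the same line and were harvested after 2 days, which began 2 days after seeding of single cells, whereas a legend of the study gives a longer treatment. The sex, strain and age of the source animal are not given in the sources used here, and cultures of 1 line do not cover the variation between tumors.

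Total counts were between 22103591 and 30098210 per sample, and levels are given as CPM after TMM scaling for library size. Control replicate 1 and Folfiri replicate 3 stood somewhat apart from the other replicates of their groups, with chi-square statistics per degree of freedom of 22.4 and 23.7, and of 11.9 and 12.3, against 3.84 and 3.55 for the remaining pair of each group. Without the former, 7 of the 10 genes described here were called higher and 2 lower, and without the latter 6 and 2. Folfiri changed most of the transcriptome. In edgeR's quasi-likelihood test 79.1% of 14692 tested genes passed an adjusted p of 0.05, with 40.3% higher and 38.8% lower after treatment. All 8 epithelial markers of a fixed list passed the filter, 4 of them lower and 1 higher after Folfiri, and their summed level was 5730 to 6650 CPM in controls and 4650 to 4820 CPM in treated cultures. Of 8 immune markers 7 had a row of counts, with a summed level of 21.4 to 26.1 CPM in controls and 21.6 to 22.6 CPM in treated cultures, nearly all of it Cd68. Tyrobp had at most 1 count in any sample. Of 7 fibroblast markers 6 had a row of counts, with sums of 1.08 to 1.44 CPM and 2.03 to 2.45 CPM, and Col3a1 had at most 2 counts. At these low levels Ptprc, Dcn and Pdgfra were called higher after Folfiri, with log2 fold changes of 1.39, 4.44 and 1.54, and Col1a1 lower at -1.47. Dcn went from 2, 0 and 0 counts to 19, 26 and 20. The part of such cells in the changes of the repair genes was not tested. The remaining markers, Cd3e and Lum, were not analysed here, and the count table holds 0 genes without a count in any sample.

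In brief, transcripts of Ung and Smug1, of Ogg1, and of the later factors Apex1, Polb and Xrcc1 were higher after Folfiri, by between 1.40-fold and 2.28-fold. Lig3 and Tdg were lower, by 1.53-fold and 1.21-fold. Mbd4 and Parp1 did not pass the threshold. Thus 6 of the 10 genes were called higher, against 40.3% of all genes tested, and 2 were called lower, against 38.8%. The median log2 fold change was 0.61 over the 10 genes and 0.02 over all genes. For each of the 10 genes the treated values did not overlap the control values, which was also the case for 81.4% of all genes, so this separation is common in these data.

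**Figure D1:**
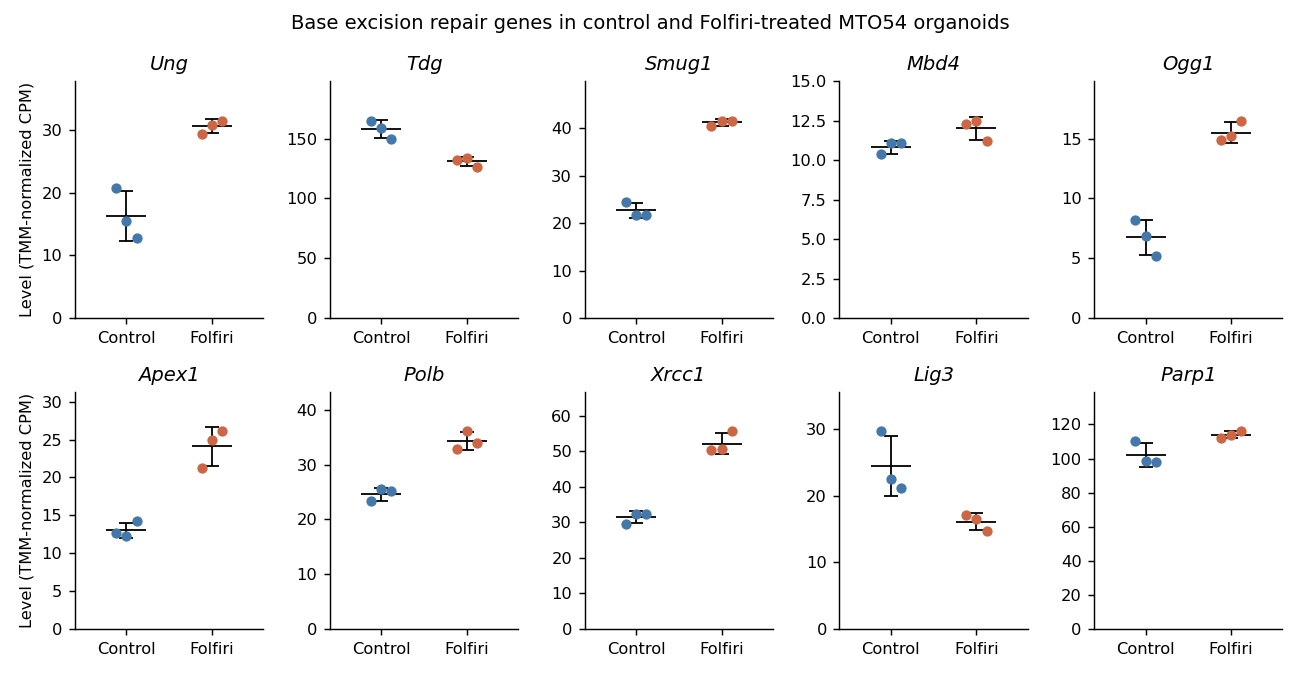
Levels of the 10 base excision repair genes in CPM after TMM scaling, 1 panel per gene with its own axis from 0, with each point a culture and bars the mean ± SD of 3 cultures. Treated values lie above control values for Ung, Smug1, Ogg1, Apex1, Polb and Xrcc1 and below them for Tdg and Lig3, while those of Mbd4 and Parp1 are separate by a narrow margin.

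Choice of scaling bears on the small changes. With total counts only, in place of TMM, the median log2 fold change of all genes rose by 0.28, from 0.02 to 0.30, and the share of calls that were higher went from 51.0% to 63.3%. Relative to the median of all genes, the 10 genes had a median of 0.59 under TMM, DESeq2 size factors, upper quartile scaling and total counts alike. A change of scaling shifts all genes by nearly the same amount, so values relative to that median stay the same by construction. Under total counts only, Tdg had a log2 fold change of 0.004 and Lig3 one of -0.35 (adjusted p = 0.075 from edgeR), so that 8 genes were called higher and 0 lower, against 49.8% and 28.9% of all genes under that scaling. Relative to the median of all genes Tdg stood at -0.29 and Lig3 at -0.63 to -0.64 under all 4 scalings. These constant values follow from the common shift and do not show whether either transcript fell.

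**Figure D2:**
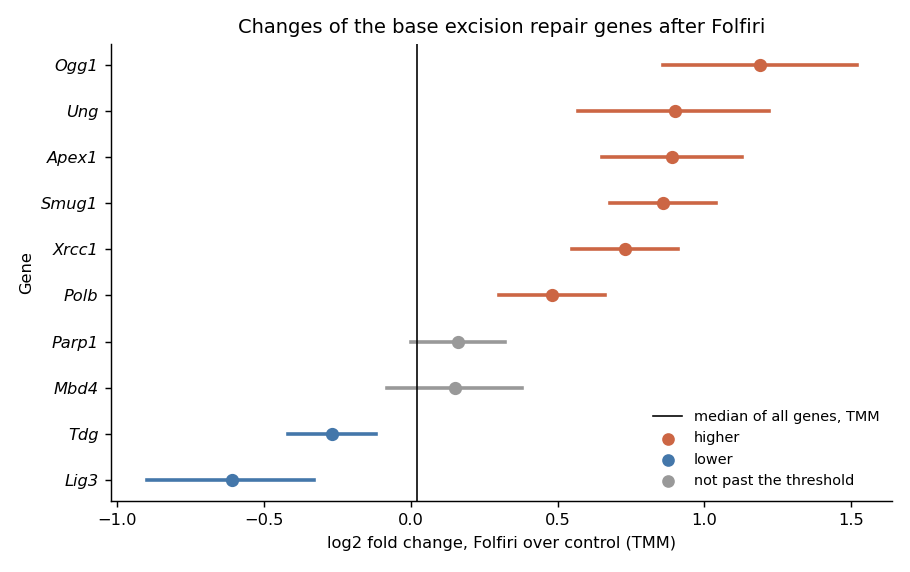
log2 fold change of each of the 10 genes, Folfiri over control, with its 95% confidence interval from the edgeR fit, coloured by whether it passed an adjusted p of 0.05. The vertical line is the median of all tested genes (0.02), and the intervals of Ung, Smug1, Ogg1, Apex1, Polb and Xrcc1 lie above it and those of Tdg and Lig3 below.

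Ung encodes the main uracil glycosylase, made as a nuclear form that acts at replication forks and as a mitochondrial form, which gene counts cannot separate. Its gene (ENSMUSG00000029591) lies on chromosome 5 of GRCm38 from 114130386 to 114139323. Ung was at 20.7, 15.5 and 12.8 CPM in the controls and at 29.4, 30.8 and 31.5 CPM in the treated cultures. The controls varied widely and the treated cultures hardly at all, yet the lowest treated value was well above the highest control. The log2 fold change was 0.90 (SE 0.14, edgeR adjusted p = 0.000184), and it stayed between 0.75 and 1.11 when single cultures were left out.

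Smug1 (ENSMUSG00000036061), on chromosome 15 from 103153290 to 103167092, encodes a glycosylase that removes uracil, 5FU and hydroxymethyluracil and works outside replication. It rose from 24.5, 21.8 and 21.8 CPM to 40.4, 41.6 and 41.5 CPM, with little spread among the treated cultures. Its log2 fold change was 0.86 (SE 0.08, edgeR adjusted p = 3.14e-06). The increases of Ung and Smug1 differed by less than their errors.

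Tdg (ENSMUSG00000034674), on chromosome 10 from 82629828 to 82650799, encodes thymine DNA glycosylase, which removes thymine, uracil or 5FU opposite guanine and also takes part in DNA demethylation. It was lower after Folfiri, at 132, 134 and 126 CPM against 165, 159 and 150 CPM. The decrease was small but larger than the spread within either group, at a log2 fold change of -0.27 (SE 0.07, edgeR adjusted p = 0.00393). The processed pseudogene Tdg-ps matches a Tdg transcript at 98.7% identity over 2968 bases and took 25.4% to 26.5% of the counts of the pair in every culture. The processed pseudogenes Gm9855, Gm5597 and AC122846.1 match Tdg at 99.0% to 99.3% identity over shorter stretches and have no row of counts. Reads can be assigned to any of these copies, so the absolute level of Tdg is uncertain. Tdg-ps itself had a log2 fold change of -0.25, and summing Tdg and Tdg-ps gave -0.26 (SE 0.07, edgeR adjusted p = 0.00514). This sum was added once the values were known. Tdg also shares 6.83% of its exon bases with Glt8d2 on the opposite strand.

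Mbd4 (ENSMUSG00000030322), on chromosome 6 from 115840697 to 115853371, encodes a methyl-CpG-binding glycosylase for thymine and uracil opposite guanine. Its values were 10.4, 11.1 and 11.1 CPM in controls and 12.3, 12.5 and 11.2 CPM after Folfiri. The highest control and the lowest treated culture were nearly equal. The log2 fold change was 0.15 with a 95% confidence interval from -0.08 to 0.38 (edgeR adjusted p = 0.2), an interval that holds no change as well as a small increase. With total counts only it was 0.43 and passed the threshold (edgeR adjusted p = 0.00451).

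Levels of different genes can be compared only per length, here as RPKM, the TMM-scaled CPM divided by the kilobases of all annotated exons. In the controls Tdg was at 29.3 ± 1.42 RPKM, Smug1 at 3.70 ± 0.256, Ung at 2.99 ± 0.735 and Mbd4 at 2.05 ± 0.0761 RPKM (SD, n = 3 each). Tdg thus made up most of the glycosylase transcripts of this group, although part of that figure rests on how reads were divided with its pseudogenes. The summed level of the 4 genes was 40.4, 38.0 and 35.8 RPKM in controls and 38.9, 39.7 and 38.1 RPKM after Folfiri, so the groups overlapped in the sum under TMM. With total counts only, a scaling tried after the values were known, the sums were 39.0, 33.5 and 31.5 in controls and 43.0, 43.6 and 41.8 RPKM after Folfiri and did not overlap. The make-up of the sum does not depend on the scaling. Tdg contributed 75.9%, 77.7% and 77.7% of the sum in controls and 63.3%, 62.8% and 61.6% after Folfiri. Ung went from 6.54% to 9.37% in controls up to 13.8% to 15.1% in treated cultures, and Smug1 from 9.34% to 9.91% up to 16.9% to 17.7%. These shares were computed after the changes of the single genes had been seen, and no test was run on them.

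**Figure D3:**
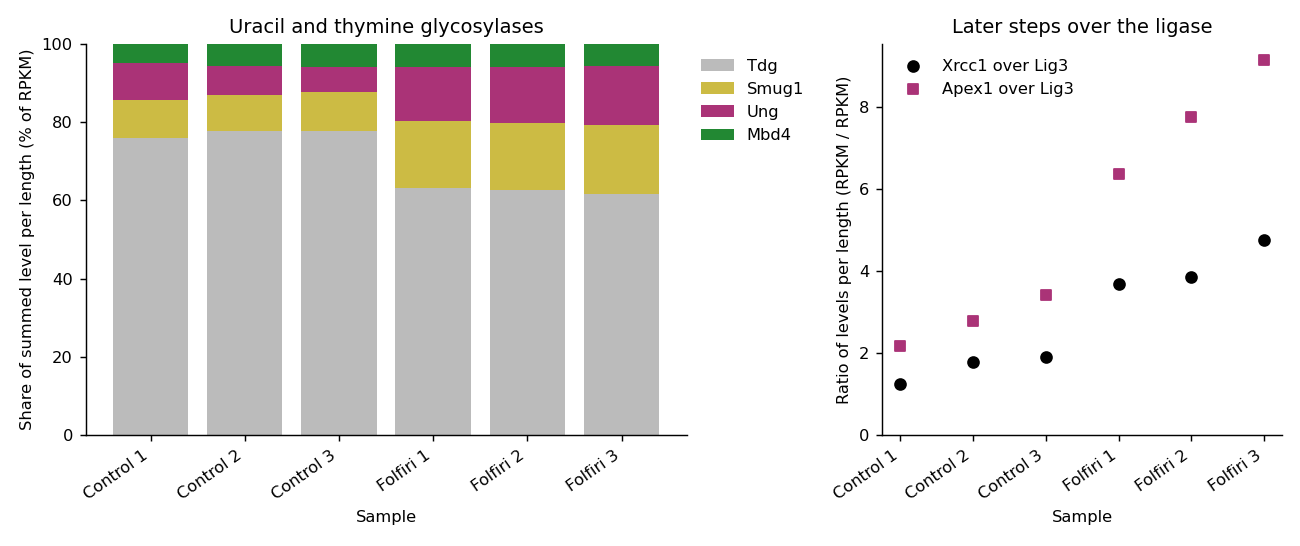
Left, share of each of the 4 uracil and thymine glycosylases in their summed RPKM, in percent, for each culture; right, RPKM of Xrcc1 and of Apex1 divided by the RPKM of Lig3 in the same cultures. The share of Tdg is 75.9% to 77.7% in controls and 61.6% to 63.3% in treated cultures, and both ratios are higher in each treated culture than in any control. The separation of the ratios follows from that of the single genes.

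Ogg1 had the largest change of the 10 genes. The gene (ENSMUSG00000030271) encodes the glycosylase for 8-oxoguanine, a common oxidized base, and lies on chromosome 6 from 113326972 to 113335068. Its level was 8.17, 6.84 and 5.19 CPM in controls and 14.9, 15.2 and 16.5 CPM after Folfiri. Every treated value was clear of every control, although the controls spread widely. The log2 fold change was 1.19 (SE 0.15, edgeR adjusted p = 2.58e-05), with a range from 1.04 to 1.35 when single cultures were left out. The gene shares 10.6% of its exon bases with Camk1 on the opposite strand, which had a log2 fold change of 0.07 (edgeR adjusted p = 0.557).

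Apex1 encodes the main endonuclease at abasic sites, the step after every monofunctional glycosylase, and also serves as a redox factor. The gene (ENSMUSG00000035960) lies on chromosome 14 from 50924968 to 50927139. Counts gave 12.6, 12.3 and 14.2 CPM in controls and 21.2, 24.9 and 26.1 CPM after Folfiri. The log2 fold change was 0.89 (SE 0.11, edgeR adjusted p = 2.15e-05). As many as 61.7% of the annotated exon bases of Apex1 are shared with Pip4p1, which runs on the opposite strand, and the library kit named in the labels does not mark strand. Reads there cannot be told apart, so the level and the change of Apex1 are uncertain. Pip4p1 itself moved the other way, with a mean of 94.3 ± 11.9 CPM in controls and 41.8 ± 2.13 CPM in treated cultures (SD, n = 3 each).

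Polb (ENSMUSG00000031536), on chromosome 8 from 22628126 to 22653435, encodes the polymerase that fills the gap and trims its sugar end. It was at 23.3, 25.5 and 25.1 CPM in controls and at 32.9, 36.1 and 34.0 CPM after treatment. This was the smallest of the 6 increases, at a log2 fold change of 0.48 (SE 0.08, edgeR adjusted p = 0.000246).

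Xrcc1 (ENSMUSG00000051768), on chromosome 7 from 24546289 to 24573440, encodes a scaffold without enzyme activity that binds Lig3, Polb and Parp1. It rose from 29.5, 32.5 and 32.3 CPM to 50.3, 50.7 and 55.7 CPM, a log2 fold change of 0.73 (SE 0.08, edgeR adjusted p = 1.05e-05). Lig3, its ligase partner and the only DNA ligase of mitochondria, went the other way. Its gene (ENSMUSG00000020697) lies on chromosome 11 from 82781108 to 82804274. Lig3 was at 29.7, 22.6 and 21.2 CPM in controls and at 17.1, 16.5 and 14.7 CPM after Folfiri. Control replicate 1 was the highest, but the other controls were also above each treated culture. The log2 fold change was -0.61 (SE 0.13, edgeR adjusted p = 0.00122), between -0.71 and -0.45 when single cultures were left out. Rffl on the opposite strand shares 25.1% of the exon bases of Lig3 and was also lower, at a log2 fold change of -0.44, so the level and the change of Lig3 are uncertain as well.

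Because both proteins work as a pair, their transcripts were set against each other within each culture, a choice made after the values had been seen and not tested. The ratio of Xrcc1 to Lig3 in RPKM was 1.24, 1.79 and 1.90 in controls and 3.67, 3.85 and 4.75 after Folfiri. Apex1 was also set against Lig3, which the reason of a pair does not cover. The ratio of Apex1 to Lig3 was 2.18, 2.79 and 3.42 in controls and 6.36, 7.74 and 9.13 after Folfiri. Neither pair of groups overlapped, which follows from the separate values of the single genes and adds nothing to them. Both ratios carry the uncertainty of Lig3 from the exon bases shared with Rffl, and the second also that of Apex1. Such a ratio does not depend on the scaling between libraries, but its size depends on the gene lengths used, and with the longest transcripts the control levels were 12.4 RPKM for Xrcc1 and 4.12 RPKM for Lig3 in place of 5.40 and 3.37 RPKM.

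Parp1 (ENSMUSG00000026496), on chromosome 1 from 180568924 to 180601254, encodes the enzyme that detects strand breaks and builds poly(ADP-ribose), to which Xrcc1 is recruited. It was at 110, 98.4 and 97.9 CPM in controls and at 112, 114 and 116 CPM after Folfiri. Control replicate 1 lay close to the treated cultures and the other controls below. The log2 fold change was 0.16 with a 95% confidence interval from -0.0011 to 0.32 (edgeR adjusted p = 0.0638). Without control replicate 1 it was 0.22 and passed the threshold (edgeR adjusted p = 0.00337), and it also passed with upper quartile scaling, at 0.21, and with total counts only, at 0.43 (edgeR adjusted p = 0.0015).

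Per length, Tdg and Parp1 were the most abundant of the 10 genes in both groups, at 29.3 and 19.3 RPKM in controls and 24.3 and 21.6 RPKM after Folfiri. Apex1 followed at 9.17 ± 0.710 and 16.9 ± 1.79 RPKM (SD, n = 3 each), but with the longest transcript as the length Xrcc1 came before it in controls, at 12.4 against 10.5 RPKM. In the controls Smug1, Lig3, Ogg1 and Ung stood between 2.99 and 3.70 RPKM and did not differ beyond their spread. After Folfiri Ogg1 was at 7.10 ± 0.395 RPKM, Smug1 at 6.71 ± 0.105, Ung at 5.59 ± 0.200 and Lig3 at 2.21 ± 0.174 RPKM (SD, n = 3 each). With all exons as the length, Ogg1 and Smug1 again did not differ beyond their spread, while Ung and Lig3 each stood apart from them. Lig3 then lay beside Mbd4, at 2.27 ± 0.134 RPKM, as the lowest of the 10, and these neighbours did not differ beyond their spread. The order of these genes depends on the length used too. With the longest transcript Ung was at 5.27 and Ogg1 at 4.21 RPKM in controls, and treated levels were not computed that way.

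Sequences before the transcription starts were examined to see what the genes share apart from their function. RefSeq windows of GRCm38.p6 were found for 9 of the 10 genes, all but Polb, and the 250 bases before the start were searched on both strands for 6 short motifs. The E-box CACGTG was present in 4 of the 9 genes, against 6.02% of 32817 windows of all genes. Of these, 1 gene was higher after Folfiri (Apex1, of 5 higher genes with a window), 2 were lower (Tdg and Lig3, of 2) and 1 was not called (Parp1, of 2). The stretches that hold it are printed without annotated exon bases. Capitals mark CACGTG in each, and in addition TGACGTCA in Tdg and TTCCGG, the reverse complement of CCGGAA, in Lig3. Ogg1, the gene with the largest change, is shown for its 2 matches of CCGGAA, in capitals on either strand.
Apex1, chr14:50924894-50924948, plus strand: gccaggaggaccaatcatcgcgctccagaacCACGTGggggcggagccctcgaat
Tdg, chr10:82629688-82629827, plus strand: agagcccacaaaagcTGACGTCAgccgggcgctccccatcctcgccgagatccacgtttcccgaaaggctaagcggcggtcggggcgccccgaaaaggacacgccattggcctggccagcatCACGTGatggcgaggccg
Lig3, chr11:82781043-82781107, plus strand: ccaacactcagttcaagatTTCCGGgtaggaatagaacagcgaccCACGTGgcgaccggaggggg
Parp1, chr1:180568751-180568890, plus strand: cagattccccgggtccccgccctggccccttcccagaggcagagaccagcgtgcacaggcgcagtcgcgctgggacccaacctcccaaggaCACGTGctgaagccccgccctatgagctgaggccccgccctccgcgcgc
Ogg1, chr6:113326832-113326971, plus strand: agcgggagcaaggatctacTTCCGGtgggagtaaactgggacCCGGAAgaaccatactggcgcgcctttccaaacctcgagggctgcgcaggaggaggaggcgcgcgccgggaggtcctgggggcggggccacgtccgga

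The E-box began 24 bases before the start in Apex1, 28 in Tdg, 21 in Lig3 and 49 in Parp1. Motif CCGGAA was found in Smug1, Mbd4, Ogg1 and Lig3, against 3944 of the 32817 windows, and CCAAT in 6 of the 9 genes, against 33.8%. GGGCGG was found in 5, against 32.7%, and TGACGTCA in Tdg alone, against 1.55%. None of the 9 windows held TTTCCCGC, TTTGGCGC, TTTCGCGC or TTTGCCGC, forms of the E2F motif that 1.86% of all windows hold. Windows of all genes include noncoding ones, and a match in letters does not show binding. The RefSeq windows of Xrcc1 and Smug1 lie inside the genes as GENCODE annotates them, so their matches may belong to minor starts.

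Other genes of the pathway were taken from lists drawn up with earlier results of these data known. Among 6 other DNA glycosylases, 5 were lower after Folfiri, 0 were higher and Mutyh was not called, against 38.8% and 40.3% of all genes, with a median log2 fold change of -0.94. Neil3, which acts on oxidized bases in single-stranded DNA and on crosslinks in dividing cells, had the strongest decrease of them. Its log2 fold change was -1.73 (edgeR adjusted p = 5.72e-08), with means of 36.3 ± 2.53 CPM and 10.9 ± 0.563 CPM (SD, n = 3 each). Nthl1 and Neil1, both for oxidized pyrimidines, went from 8.68 ± 1.03 to 3.73 ± 0.231 CPM and from 11.0 ± 1.06 to 5.48 ± 0.318 CPM (SD, n = 3 each). The glycosylases for oxidized bases therefore went in different directions, with Ogg1 higher and these lower under all 4 scalings. With total counts only, 3 of the 6 were lower and 1 higher, against 28.9% and 49.8% of all genes.

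Of 10 genes for strand break ends and ADP-ribose, 7 were higher and 3 lower, against 40.3% and 38.8% of all genes, with a median log2 fold change of 0.33. Parg, which degrades poly(ADP-ribose), had a log2 fold change of 0.75 (edgeR adjusted p = 2.73e-05), followed by Aptx at 0.45 and Parp3 at 0.42. Aptx removes AMP left by failed ligation. Among the lower genes were Aplf at -0.66 and Hpf1 at -0.56. Hpf1 directs Parp1 to serine residues. With total counts only, 7 were higher and 2 lower, against 49.8% and 28.9% of all genes.

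**Figure D4:**
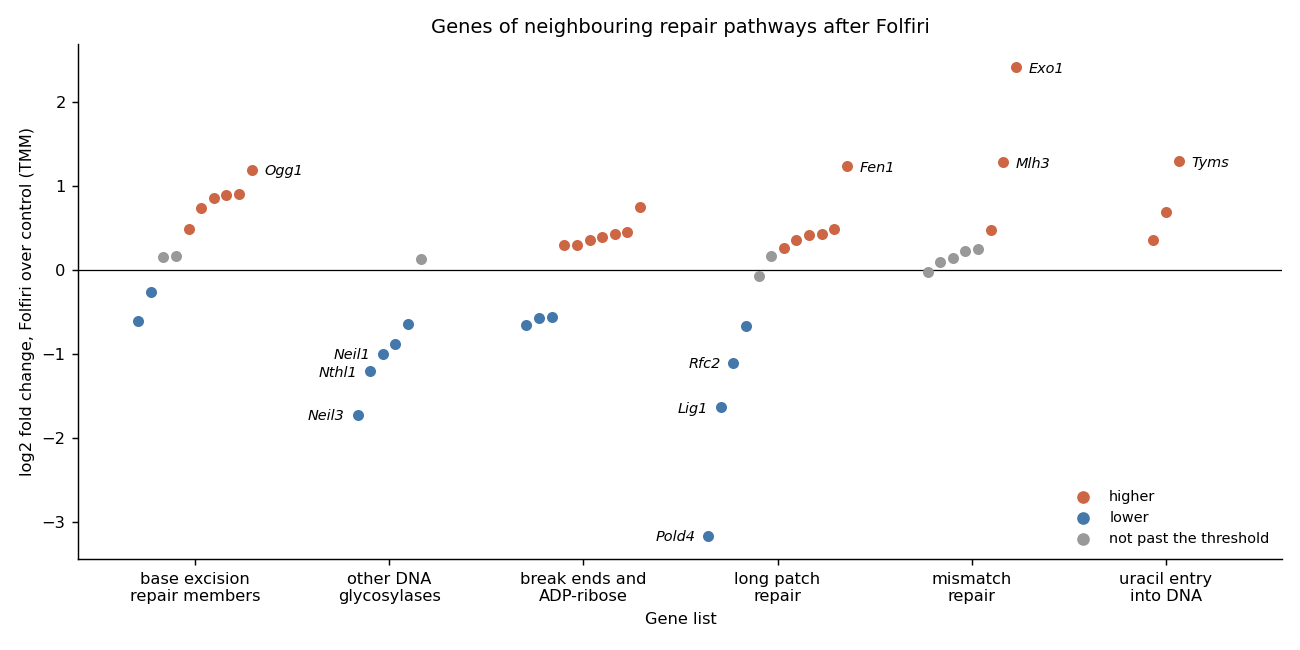
log2 fold change, Folfiri over control, of the 10 base excision repair genes and of 5 lists from neighbouring pathways, 1 point per gene, coloured by whether it passed an adjusted p of 0.05. Names are given at a change of at least 1 in size; Pold4 is lowest at -3.17 and Exo1 highest at 2.41.

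Long patch repair uses replication proteins to replace several bases. Of its 12 genes tested, 6 were higher and 4 lower, with a median of 0.21, near the 40.3% and 38.8% of all genes. Pold4, the smallest subunit of DNA polymerase delta, fell to 5.12 ± 0.643 CPM against 46.0 ± 7.06 CPM in controls (SD, n = 3 each). Its log2 fold change was -3.17 (edgeR adjusted p = 1.89e-08), and 24.6% of its exon bases are shared with AC109138.7, a gene on the same strand that was not analysed here. Lig1, the replicative ligase, was at 149 ± 1.43 CPM without and 48.0 ± 0.971 CPM with treatment (SD, n = 3 each), which is -1.64 on the log2 scale (edgeR adjusted p = 9.28e-09). Both ligases that close repair patches in the nucleus, Lig1 and Lig3, were thus called lower at the transcript level under TMM. Lig1 was called lower under all 4 scalings. Lig3 was not called with total counts only, at -0.35, and its change is uncertain because of the exon bases shared with Rffl. Rfc2, a subunit of the clamp loader, was lower at -1.11, and 15.1% of its exon bases are shared with Lat2 on the opposite strand. The flap endonuclease Fen1 had a log2 fold change of 1.23, but 78.8% of its exon bases are shared with the antisense gene Gm10143 and its counts are low, at 3.67 CPM in controls. Rfc3 and Rfc4 were higher at 0.48 and 0.42, and Rfc4 shares 12.7% of its exon bases with Eif4a2 on the opposite strand. Pcna, the clamp itself, had a log2 fold change of -0.07 (edgeR adjusted p = 0.423), which was 0.21 with total counts only.

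Mismatch repair recognizes 5FU paired with guanine as well. Of its 8 genes 3 were higher and 0 lower, with a median of 0.23, against 40.3% and 38.8% of all genes. Exo1, the exonuclease of the pathway, reached 48.4 ± 2.45 CPM against 9.01 ± 3.01 CPM in controls (SD, n = 3 each). This was a log2 fold change of 2.41 (edgeR adjusted p = 5.05e-07). Mlh3 and Pms2 had log2 fold changes of 1.28 and 0.47. The count of higher genes was 5 with upper quartile scaling and 7 with total counts only, against 42.2% and 49.8% of all genes called higher under these scalings. Pms1 was called under none of the 4. All 3 genes that govern entry of uracil into DNA were higher, against 40.3% of all genes, with Tyms at a log2 fold change of 1.29, Samhd1 at 0.69 and Dut at 0.36. Tyms is the target of 5FU and Dut, the dUTPase, keeps dUTP out of DNA.

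Several of these genes are coupled to the cell cycle, and cycling markers moved as well. Of 8 markers of cycling cells 6 were lower and 2 higher, against 38.8% and 40.3% of all genes, and their summed level was 2870 to 3280 CPM in controls and 1580 to 1620 CPM after Folfiri. Mki67 had a log2 fold change of -1.58, whereas the replication licensing genes Mcm2 and Mcm5 had changes of 1.31 and 0.34. Their part in the changes of the repair genes was not tested. In bulk RNA fewer cells of a type and less RNA per cell cannot be told apart.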

How the data were processed

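RNA of 3 control and 3 Folfiri-treated MTO54 cultures was sequenced from poly(A) libraries, and groups were taken from the labels. The authors aligned reads with STAR 2.5.2, the version in the submitters' processing notes, to GRCm38 with GENCODE vM25. Gene counts made with Rsubread were deposited without normalization. The strand setting and the handling of multi-mapping reads are not given in the sources used here.

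Symbols, positions and exon lengths came from GENCODE vM21 on the same build, which matched 24168 of 24190 identifiers. Tests were run in edgeR 4.0.16 (R 4.3.3) with the default expression filter, TMM scaling, the quasi-likelihood test without covariates, Benjamini-Hochberg adjustment over 14692 genes and a threshold of 0.05. Standard errors were the fold change divided by the square root of F. Alternatives were DESeq2 1.42.0, 3 other scalings, 2 other filters, the replicate number as a block and each culture left out. Near-identical copies (85% identity over 200 bases or more) were found with blastn 2.17.0. The procedure was tested on simulated data. The members and lists were chosen with earlier results of these data known. Named genes are the 10 members, Mki67 and, per list, at most 3 called genes in each direction, taken by size of change among those without overlap between the groups. Cd68, Ptprc, Tyrobp, Dcn, Pdgfra, Col1a1, Col3a1, Pms1, Cd3e, Lum, Mutyh, Pcna, Mcm2, Mcm5 and the overlapping genes and copies were added after their values were seen. One gene that the rule names is not reported here. Total counts were from 22103591 (control replicate 3) to 30098210, TMM factors were 0.880 to 0.966 in controls and 1.10 to 1.11 in treated cultures, and p-values measure the spread between cultures of 1 line.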

Additional observations from a re-analysis of the deposited data

How the results depend on the processing

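Over the 13 alternative fits, from 6 to 8 members were higher, and 2 were lower except with total counts only, where the number was 0, the median log2 fold change of the members was 0.88 and Tdg turned to 0.004 (edgeR adjusted p = 0.964). With that scaling Mbd4 passed the threshold at 0.43 (edgeR adjusted p = 0.00451), Parp1 at 0.43 (edgeR adjusted p = 0.0015), and Lig3 no longer did. This scaling shifts all genes by 0.28. Relative to the median of all genes Tdg therefore stayed at -0.29 by construction, which is no check of its decrease. The number of differing genes was between 11499 and 12742 under other filters, scalings and tests and between 11021 and 12312 without single cultures. Ung, Smug1, Ogg1, Apex1, Polb and Xrcc1 kept their direction and their call in all 13 fits. With the replicate number as a block, 6 members were higher and 2 lower, with a median of 0.61, and 11499 genes differed. Deviations of same-numbered cultures correlated at 0.03, -0.12 and 0.04, and those of unlike-numbered cultures at -0.12 to 0.12. These values show no pairing by number. With 3 cultures per group they cannot exclude that same-numbered cultures were handled together. With the longest transcript in place of all exons, control levels per length were from 1.15 to 2.31 times as high, Xrcc1 going from 5.40 to 12.4 RPKM, which changes the order of genes by level. Standard errors of the 10 log2 fold changes were between 0.07 (Tdg and Parp1) and 0.15 (Ogg1).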
